A study of Mus musculus with 9 samples.

Results

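Genes of the medullary osmolyte system and of urea transport were compared between kidneys of 96 week old and 14 week old mice. They were 7 genes picked by name: the transcription factor Nfat5, the carriers Slc5a3, Slc6a6 and Slc6a12, aldose reductase (Akr1b3) and the urea transporters Slc14a1 and Slc14a2. Of these, 6 had a probe set that carried their symbol alone, among 19938 genes with such a probe set, and each of the 6 had 1 probe set. Akr1b3 was not analysed here. RNA of whole kidney came from female wild type mice on a mixed FVB/C57BL6 background, 5 at 96 weeks and 4 at 14 weeks, with 1 array per mouse. Whole kidney RNA mixes cortex and medulla, so that fewer cells of a type and less RNA per cell cannot be told apart. The deposited values are log2 expression values, and each number of expression below is on this log2 scale.

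Cells of the renal medulla live in a salt and urea concentration far above that of plasma. They balance it by taking up or making small organic osmolytes, namely myo-inositol, betaine, taurine, sorbitol and glycerophosphocholine. Nfat5, also called TonEBP, is the transcription factor that switches on the genes for osmolyte uptake and synthesis under hypertonic stress. Urea itself is recycled into the inner medulla by UT-A (Slc14a2) in the thin limbs and the collecting duct and by UT-B (Slc14a1) in the descending vasa recta and in red cells, and this recycling is needed to concentrate urine.

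Nfat5 binds DNA at tonicity elements, which contain the letters TGGAAA. The bases before the start site of Slc6a12, in whose dog counterpart such an element was first described, and of Slc5a3 are shown because they are the carriers regarded as targets of Nfat5 for which a promoter sequence was at hand and which are described below. Sequences are from RefSeq on GRCm38.p6, plus strand, 250 bases each, with TGGAAA in capitals. RefSeq gives 5 start sites for Slc6a12, and the window before the first of them is shown because it alone held the letters. This window is chr6:121342324-121342573 and that of Slc5a3 is chr16:92058072-92058321.
Slc6a12: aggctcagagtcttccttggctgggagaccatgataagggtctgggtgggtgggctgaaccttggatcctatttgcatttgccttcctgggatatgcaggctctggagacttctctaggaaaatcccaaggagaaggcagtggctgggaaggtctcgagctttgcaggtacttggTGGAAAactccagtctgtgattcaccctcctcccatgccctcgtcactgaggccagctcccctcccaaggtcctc
Slc5a3: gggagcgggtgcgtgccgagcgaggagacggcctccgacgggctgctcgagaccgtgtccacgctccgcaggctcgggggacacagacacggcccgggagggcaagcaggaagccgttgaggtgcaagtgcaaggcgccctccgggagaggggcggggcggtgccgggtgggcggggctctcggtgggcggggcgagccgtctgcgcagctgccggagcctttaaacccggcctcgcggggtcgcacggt
In the window before the first start of Slc6a12 the letters begin 75 bases before the start site. They were not found in the windows before the other 4 starts of Slc6a12, in that of Slc5a3, nor in the window of the same length before the start of Nfat5. Both strands were searched, and 18.6% of 32851 such windows held TGGAAA, a string also read by other NFAT factors. A match is a description of letters and not a binding site.

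None of the 6 genes differed between the ages at an adjusted p under 0.05 from limma. Of all 19938 genes, 6.72% did. None reached a 1.5-fold change with an unadjusted p under 0.05 either, against 1.6% of all genes. The largest of the 6 differences was that of Slc14a1, at 1.20-fold lower in the 96 week old kidneys, and the 95% interval of each of the 6 stayed within 1.5-fold in both directions. At an unadjusted p under 0.05, 2 of the 6 passed, Slc5a3 as lower and Slc6a6 as higher, against 28.5% of all genes. The median of the 6 log2 fold changes was -0.11, beside -0.03 over all genes.

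**Figure D1:**
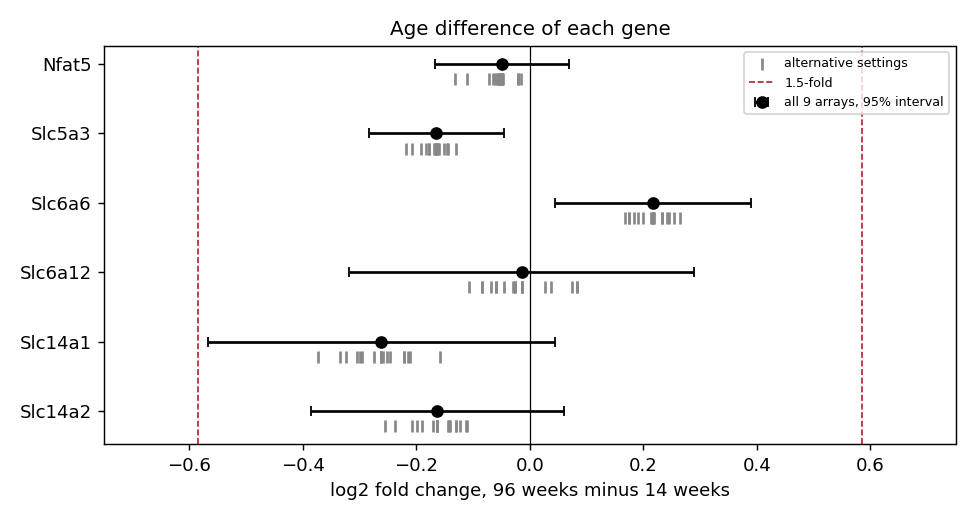
Log2 fold change (96 weeks minus 14 weeks) of the 6 genes. Circles and bars are the limma estimate from all 9 arrays with its 95% interval, grey ticks are the 18 alternative settings, and the dashed red lines mark 1.5-fold. No interval reaches a dashed line, and those of Slc5a3 and Slc6a6 do not cross 0.

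Nfat5 showed near equal levels at both ages. Its log2 expression was 9.03, 9.03, 9.07, 9.03 and 8.90 in replicates 1 to 5 at 96 weeks, and 9.04, 9.03, 9.01 and 9.16 in replicates 1 to 4 at 14 weeks. The groups overlapped, with replicate 5 lowest at 96 weeks and replicate 4 highest at 14 weeks. The log2 fold change was -0.05 (standard error 0.053, 95% interval -0.17 to 0.07, adjusted p = 0.55 from limma). An exact two-sided permutation test that enumerated the splits of the 9 arrays gave p = 0.40. The size of the log2 fold change depended on the scaling between arrays. It was -0.13 after a repeated quantile normalization (adjusted p = 0.20 from limma) and -0.11 after cyclic loess (adjusted p = 0.27 from limma). Replicates 1 and 2 at 96 weeks held the identical value, as was common on these arrays, where 57.3% of genes had the same value on at least 2 arrays.

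Slc5a3, the sodium coupled carrier of myo-inositol, lay lower in all 5 old kidneys than in the 4 young ones, although it did not pass the adjusted threshold. It measured 10.36, 10.52, 10.33, 10.40 and 10.46 in replicates 1 to 5 at 96 weeks, and 10.63, 10.57, 10.52 and 10.59 in replicates 1 to 4 at 14 weeks. The groups came close to touching, since the highest old kidney lay only 0.0021 below the lowest young one. Over all genes, 5.79% were lower in every old kidney. The mean was 10.41 ± 0.078 at 96 weeks (SD, n = 5) and 10.58 ± 0.045 at 14 weeks (SD, n = 4). The log2 fold change was -0.16 (standard error 0.054, 95% interval -0.28 to -0.05, adjusted p = 0.088 from limma). The exact two-sided permutation test gave p = 0.016, or 0.095 when adjusted over the 6 genes. The limma call depended on the scaling between arrays. After a repeated quantile normalization the log2 fold change was -0.22 (adjusted p = 0.037 from limma), and after cyclic loess it was -0.21 (adjusted p = 0.039 from limma). Mrps6, a mitochondrial ribosomal protein gene whose annotated span overlaps Slc5a3, has its own probe set and differed by 0.09 between the ages (standard error 0.080, adjusted p = 0.45 from limma).

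Slc6a6, the taurine carrier TauT, tended the other way. It measured 10.60, 10.72, 10.70, 10.41 and 10.53 in replicates 1 to 5 at 96 weeks, and 10.48, 10.32, 10.25 and 10.45 in replicates 1 to 4 at 14 weeks. In 4 of 5 old kidneys the value lay above all young ones, and replicate 4 fell within the young range. The mean was 10.59 ± 0.13 at 96 weeks (SD, n = 5) and 10.37 ± 0.11 at 14 weeks (SD, n = 4). The log2 fold change was 0.22 (standard error 0.078, 95% interval 0.04 to 0.39, adjusted p = 0.11 from limma). The exact two-sided permutation p was 0.048, or 0.14 when adjusted over the 6 genes. Slc6a6 is also expressed by leukocytes, of which 4 of 11 marker genes passed as higher and 0 as lower (adjusted p under 0.05 from limma), namely Jchain (5.02), Lyz2 (2.54), Tyrobp (1.17) and Csf1r (0.45). The mean of these markers, as log2 values centred per gene, ran between -0.08 and 1.57 at 96 weeks and between -0.83 and -0.73 at 14 weeks. After centring on the age means, Slc6a6 and the marker mean had Pearson's r of -0.48 (exact permutation p = 0.28, adjusted p = 0.64) and Spearman's rho of -0.35 (exact permutation p = 0.44, adjusted p = 0.90) over 9 arrays, and r was 0.47 without the 2 arrays farthest from the median of the marker mean, so that its sign rested on those arrays. The part of leukocytes in the Slc6a6 difference was not tested.

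Slc6a12, the betaine carrier BGT1, showed no shift that exceeded its wide spread. It measured 7.73, 7.73, 7.29, 7.81 and 7.86 in replicates 1 to 5 at 96 weeks, and 7.49, 7.99, 7.49 and 7.82 in replicates 1 to 4 at 14 weeks. The young kidneys formed a low and a high pair, and the old range overlapped with both, with replicate 3 below all other arrays. The log2 fold change was -0.015 (standard error 0.14, 95% interval -0.32 to 0.29, adjusted p = 0.95 from limma). Its sign turned with the arrays used, and without replicate 3 at 96 weeks it was 0.083 (adjusted p = 0.64 from limma).

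**Figure D2:**
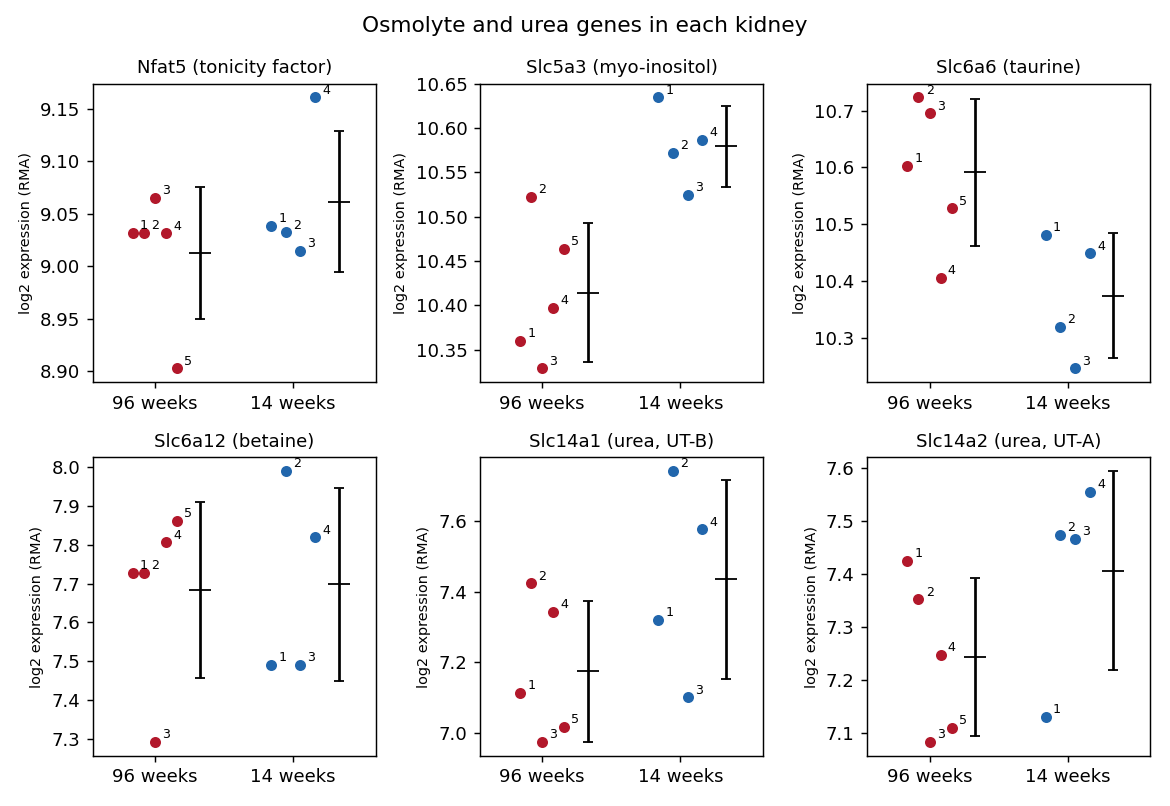
Log2 expression of Nfat5, 3 osmolyte carriers and 2 urea transporters in each kidney, with 5 mice at 96 weeks (red) and 4 at 14 weeks (blue). Points are mice with their replicate number, the bar is the mean with 1 SD, and each panel has its own axis. Old and young kidneys separate only for Slc5a3, by 0.0021, and 4 of 5 old kidneys lie above the young ones for Slc6a6.

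Of the urea transporters, Slc14a1 (UT-B) measured 7.11, 7.42, 6.97, 7.34 and 7.02 in replicates 1 to 5 at 96 weeks, and 7.32, 7.74, 7.10 and 7.58 in replicates 1 to 4 at 14 weeks. All 5 old kidneys lay below the young mean of 7.43 and 2 lay below all young kidneys, so that the groups overlapped. The log2 fold change was -0.26 (standard error 0.14, 95% interval -0.57 to 0.04, adjusted p = 0.23 from limma), with an exact two-sided permutation p of 0.17. Only 5.44% of all genes had a log2 fold change as low or lower. UT-B is also a protein of red cells and of the medullary vessels. Only 2 erythroid markers of 10 had a probe set of their own, Alas2 and Epb42, with log2 fold changes of -0.15 and -0.11 (adjusted p = 0.28 and 0.33 from limma). Of 8 endothelial markers, Eng (0.44) and Egfl7 (0.29) passed as higher and 0 as lower (adjusted p = 0.038 and 0.043 from limma), but neither was called in the methods' t-test or after either rescaling of the arrays. Their part in the Slc14a1 values was not tested.

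Slc14a2 (UT-A), which neighbours Slc14a1 on the chromosome, measured 7.42, 7.35, 7.08, 7.25 and 7.11 in replicates 1 to 5 at 96 weeks, and 7.13, 7.47, 7.47 and 7.55 in replicates 1 to 4 at 14 weeks. Replicate 1 at 14 weeks was low and fell inside the old range, while the other young kidneys exceeded all old ones. The log2 fold change was -0.16 (standard error 0.10, 95% interval -0.39 to 0.06, adjusted p = 0.30 from limma). Within each array, Slc14a2 minus Slc14a1 averaged 0.07 ± 0.16 at 96 weeks (SD, n = 5) and -0.03 ± 0.28 at 14 weeks (SD, n = 4). The difference of 0.10 between the ages did not exceed this spread (exact two-sided permutation test, p = 0.52). Whether both transporters changed by the same amount is thus not settled by these arrays.

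Among mice of the same age, the genes for betaine and urea carriers spread more than Nfat5 and Slc5a3. The SD of Slc14a1 was 0.20 at 96 weeks and 0.28 at 14 weeks, and that of Slc6a12 was 0.23 and 0.25, against 0.063 and 0.067 for Nfat5 and 0.078 and 0.045 for Slc5a3. Slc14a1 and Slc6a12 were also dimmer, at percentiles 64.0 and 70.5 of mean signal over all genes, against 87.4 for Nfat5 and 96.5 for Slc5a3. The differences in spread and the part of signal level in them were not tested. In replicate 2 at 96 weeks all 6 genes exceeded the mean of their age group, as they did in replicate 4 at 14 weeks. In replicate 3 at 96 weeks 4 of 6 fell below it, and in replicate 3 at 14 weeks 5 of 6 did. After centring on the age means, the closest pair was Slc6a12 and Slc14a1, with Pearson's r of 0.71 (exact permutation test within ages, p = 0.070, adjusted p = 0.66) and Spearman's rho of 0.63 (exact permutation test within ages, p = 0.11, adjusted p = 0.72) over 9 arrays. Without the 2 arrays farthest from the median of Slc6a12, r was 0.50. None of the 15 pairs had an adjusted p under 0.05, and r ranged from -0.35 (Slc6a6 and Slc6a12) to 0.71.

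**Figure D3:**
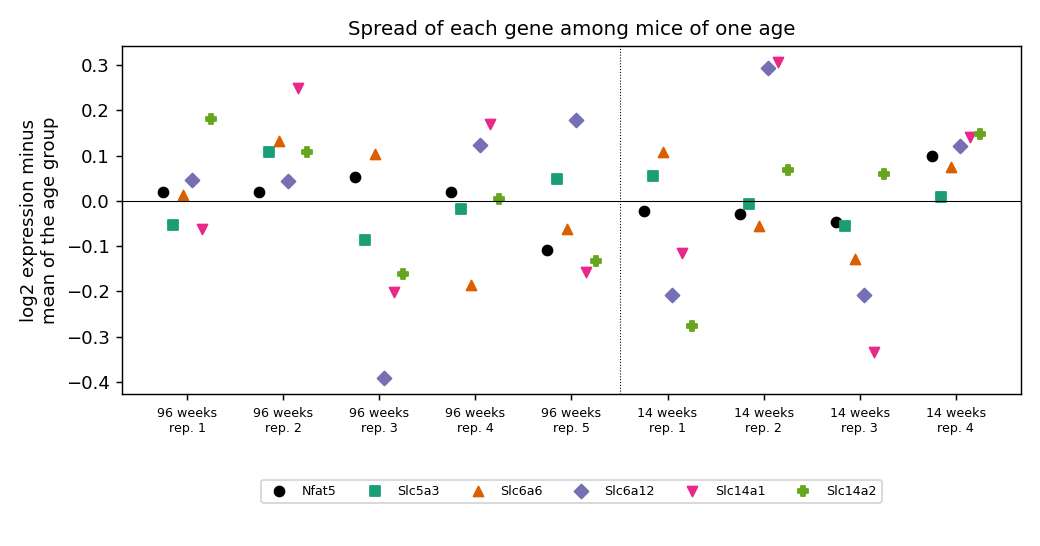
Log2 expression of each gene minus the mean of its age group, for 5 kidneys at 96 weeks (left of the dotted line) and 4 at 14 weeks (right). All 6 genes lie above 0 in replicate 2 at 96 weeks and in replicate 4 at 14 weeks, and the widest deviation is that of Slc6a12 in replicate 3 at 96 weeks (-0.39).

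Markers of medullary tubule segments varied among the kidneys as well. The mean of 27 markers of the thick limb, thin limbs and collecting duct, centred per gene, ran between -0.09 and 0.13 at 96 weeks and between -0.06 and 0.09 at 14 weeks, so that the ages overlapped. Replicate 2 was highest in each age group, and replicates 3 and 4 at 96 weeks were the lowest of all arrays. This order was not particular to medullary markers. At 96 weeks the proximal tubule marker mean was also highest in replicate 2 (0.14) and lowest in replicates 3 and 4 (-0.08 and -0.15). At 14 weeks, however, it was lowest in replicate 2 (-0.04). The leukocyte marker mean was highest in replicates 3 and 4 at 96 weeks (0.92 and 1.57). After centring on the age means, the medullary marker mean correlated with Slc6a12 at r = 0.63 (exact permutation test within ages, p = 0.091, adjusted p = 0.55) and with Slc14a1 at r = 0.58 (p = 0.11, adjusted p = 0.55). Spearman's rho was 0.48 (exact permutation p = 0.21, adjusted p = 0.64) and 0.62 (exact permutation p = 0.095, adjusted p = 0.52), and without the 2 arrays farthest from the median of the marker mean r was 0.64 and 0.36. For Slc5a3 r was 0.58 (exact permutation p = 0.17, adjusted p = 0.55), and it was 0.05 without the same 2 arrays. For Slc14a2 r was 0.50 (exact permutation p = 0.18, adjusted p = 0.55) and for Slc6a6 it was 0.28 (exact permutation p = 0.51, adjusted p = 0.91). For Nfat5 r was -0.13 (exact permutation p = 0.81, adjusted p = 0.97). None of 18 correlations with medullary, proximal tubule or leukocyte markers had an adjusted p under 0.05, and they were chosen after seeing the data. The largest r of the 18 was that of Slc5a3 with the proximal tubule markers, at 0.64 (exact permutation p = 0.16, adjusted p = 0.55). With the leukocyte markers Slc5a3 had an r of -0.61 (exact permutation p = 0.19, adjusted p = 0.55). With the medullary marker mean as a covariate, no gene of the 6 passed, and the log2 fold changes of Slc5a3, Slc6a6 and Slc14a1 were -0.17, 0.21 and -0.28 (adjusted p = 0.072, 0.11 and 0.16 from limma).

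The tissue carried the markers of these segments, among them Umod of the thick limb (12.85 at 96 weeks and 12.85 at 14 weeks) and Aqp2 of the collecting duct (8.22 at 96 weeks and 8.04 at 14 weeks). Of 8 thick limb markers, Cldn19, a claudin of the paracellular path by which magnesium and calcium are reabsorbed, rose (log2 fold change 0.31 with a standard error of 0.079, adjusted p = 0.044 from limma), and none was called lower. Cldn19 passed in 6 of 18 alternative settings, and after a repeated quantile normalization its adjusted p was 0.12 from limma. Kcnj1, the potassium channel ROMK, was lower in every old kidney (-0.29, adjusted p = 0.063 from limma) and was called lower with the filter on dim genes, after a repeated quantile normalization and after cyclic loess (adjusted p = 0.049, 0.024 and 0.034 from limma). None of 6 thin limb and 13 collecting duct markers passed in limma, where 0 and 4 had an unadjusted p under 0.05, the 4 being 3 higher and 1 lower. The methods' t-test called 0 of either list once adjusted. The closest were Bst1 (0.16) and Cryab (0.17) of the thin limb and Fxyd4 (0.24) and Krt8 (0.19) of the collecting duct. The sodium channel subunit gene Scnn1g (-0.22) had a p close to that of Krt8 (0.0182 for Scnn1g and 0.0180 for Krt8, unadjusted, from limma). Of the 13 collecting duct markers 6 had a positive log2 fold change, and their median was -0.05. Of 10 proximal tubule markers none passed, the closest being Slc5a12 (-0.34) and Kap (-0.16), and of 8 urothelial markers none passed, the closest being Upk1b (0.33) and Psca (0.20). Nor did any of 5 adipocyte markers, the closest being Plin1 (-0.18) and Retn (-0.12). At an unadjusted p under 0.05, 1 proximal tubule, 1 urothelial and 1 adipocyte marker passed in limma, and the methods' t-test, adjusted, called 0 in each of these lists. Over all genes, 28.5% had an unadjusted p under 0.05 in limma.

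Of 18 other measured genes of osmolyte metabolism, 1 passed as higher and 0 as lower (adjusted p under 0.05 from limma), while 4.31% of all genes were higher and 2.4% lower. It was Csad, the decarboxylase that makes hypotaurine, the precursor of taurine, at 8.48 ± 0.16 at 96 weeks (SD, n = 5) and 8.07 ± 0.12 at 14 weeks (SD, n = 4), higher by 0.41 (standard error 0.089, adjusted p = 0.027 from limma). Csad passed in 11 of 18 alternative settings, and not by the methods' t-test or after a repeated quantile normalization, where no gene of the list passed. Cdo1, which supplies its substrate from cysteine, differed by -0.21 (adjusted p = 0.16 from limma). The second myo-inositol carrier Slc5a11 had 0.38 (adjusted p = 0.052 from limma), Miox, which breaks myo-inositol down, 0.13 (adjusted p = 0.16 from limma), and Chdh, which makes betaine from choline, -0.05 (adjusted p = 0.77 from limma). The median over the 18 genes was 0.13, beside -0.03 over all genes, and 15 of them had a positive log2 fold change.

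Genes that respond to hypertonicity, with regulators and partners of Nfat5, did not pass. Of 21 measured genes none was called in limma, and the methods' t-test, adjusted, called 0. An unadjusted p under 0.05 in limma was found for 7 of the 21, 6 as higher and 1 as lower, against 28.5% of all genes. The smallest p belonged to the small heat shock protein gene Hspb1 (0.35, standard error 0.096, adjusted p = 0.054 from limma) and to haem oxygenase Hmox1 (0.71, standard error 0.20, adjusted p = 0.059 from limma). Also among the 6 higher genes were S100a4 (0.75), Fyn (0.47), Parp1 (0.17) and Atm (0.14), with adjusted p = 0.12, 0.13, 0.10 and 0.16 from limma. Hspa4l, an osmotic stress protein, differed by -0.02 (adjusted p = 0.88 from limma), the inducible heat shock protein gene Hspa1a -0.22 (adjusted p = 0.078 from limma) and the kinase gene Sgk1 -0.16 (adjusted p = 0.56 from limma). Nup88, a nuclear pore protein gene, had a value of 0.00 (adjusted p = 0.98 from limma) and the kinase gene Mapk14 -0.02 (adjusted p = 0.87 from limma). The median of the list was 0.04. The mean of the list on each array, centred per gene, ran between 0.003 and 0.14 at 96 weeks. At 14 weeks it ran between -0.095 and -0.044, so that the ages did not overlap. The means of the urothelial markers (0.01 to 0.07 at 96 weeks, -0.10 to 0.002 at 14 weeks) did not overlap either. Nor did those of the leukocyte markers (-0.08 to 1.57 and -0.83 to -0.73), while those of the other lists overlapped. These differences of list means were not tested.

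Of 11 genes of urea formation and urine concentration none was called in limma, and the methods' t-test, adjusted, called 0. An unadjusted p under 0.05 in limma was reached by 5 of the 11, 2 as higher and 3 as lower, against 28.5% of all genes. Arg2, the mitochondrial arginase that releases urea, differed by 0.67 (standard error 0.18, adjusted p = 0.055 from limma), with 9.59 ± 0.39 at 96 weeks (SD, n = 5) and 8.92 ± 0.22 at 14 weeks (SD, n = 4). Arg2 passed in 3 of 18 alternative settings. Agmatinase (Agmat), which also yields urea, had 0.17 (adjusted p = 0.099 from limma). The 3 lower genes were the other arginase gene Arg1 (-0.24), Rhcg (-0.21) and Prkca (-0.19), with adjusted p = 0.16, 0.14 and 0.17 from limma. The vasopressin receptor gene Avpr2 had 0.03 (adjusted p = 0.76 from limma), and the water channel gene Aqp4 -0.48 (adjusted p = 0.20 from limma).

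**Figure D4:**
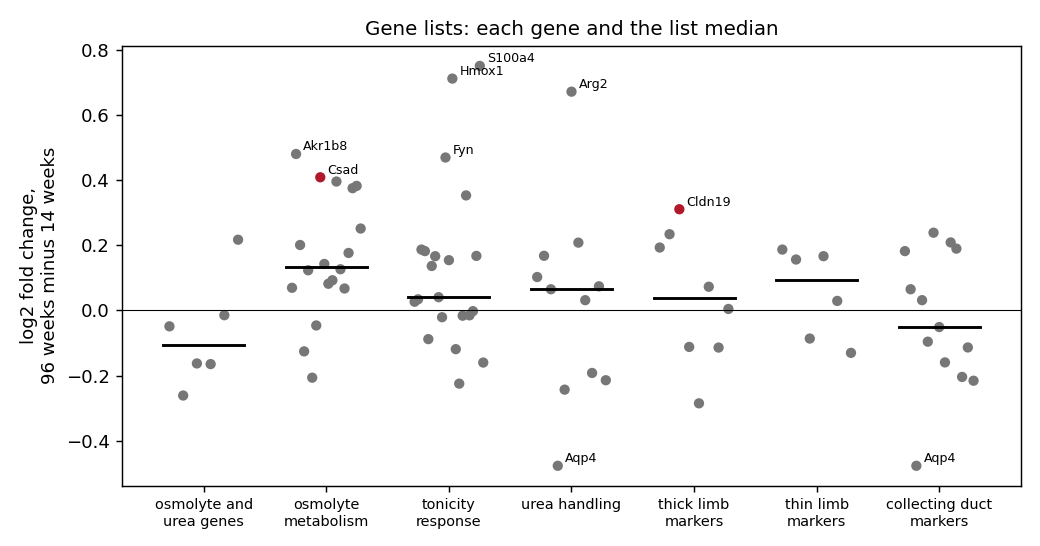
Genes of 7 lists, each point the log2 fold change of 1 measured gene, as 96 weeks minus 14 weeks. Points past the adjusted threshold of 0.05 in limma are red, the others grey, and a black line marks the median of a list. Csad and Cldn19 are the red points, and the medians lie between -0.11 and 0.13.

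For each of the 6 genes, those with the most similar values over the 9 arrays were sought among 13956 genes, those whose mean signal reached the 30th percentile. With 9 arrays, searches of this size return high correlations, which are given as a description. Unlike the correlations above, these used values that were not centred on the age means. A gene picked this way tends to share the age difference of its match, so that the age calls below are no separate result. Closest to Nfat5 were 1190005I06Rik, Mark1 and Ddit3 (Pearson's r 0.97, 0.96 and 0.96). Nfat5 itself lay between 9.01 and 9.07 except in replicate 5 at 96 weeks (8.90) and replicate 4 at 14 weeks (9.16). These r values were not computed without those 2 arrays. Closest to Slc5a3 were Oxct1, Slc7a12 and Sucla2 (0.97, 0.97 and 0.96), of which Slc7a12, an amino acid transporter gene, was lower at 96 weeks (-0.26, adjusted p = 0.034 from limma). Tbcd, Net1 and Npl were closest to Slc6a6 (0.96, 0.95 and 0.95), and Npl, which cleaves sialic acid, was higher at 96 weeks (0.33, adjusted p = 0.041 from limma). Flrt3, Tmem177 and Osr2 were closest to Slc6a12 (0.92, 0.91 and 0.88). For the urea transporters they were Mrps22, Rpgr and Grhl2 for Slc14a1 (0.94, 0.93 and 0.93), and Cad, 9130008F23Rik and Prr14 for Slc14a2 (0.89, 0.88 and 0.87).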

How the data were processed

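Kidneys of female mice were profiled on Affymetrix Mouse Gene 1.0 ST arrays. With Affymetrix Power Tools (1.12.0), the authors summarised probe sets by robust multi-array average and quantile normalized them. The log2 values of 35557 probe sets they deposited were the starting point. A genome build for the annotation is not given in the sources used here. The table holds no background or detection values, which leaves dim and absent genes alike, and precision is limited by the number of arrays. Although 5 mice per age are named in the methods, 9 labelled arrays were at hand.

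Probe sets with 1 gene symbol (21789) were kept, the brightest standing for its gene. The age comparison used lmFit and eBayes of limma (3.58.1, under R 4.3.3) for 19938 genes, with Benjamini-Hochberg adjustment, without a filter. The methods' t-test was an alternative. Single genes were also tested by exact two-sided permutation over all splits (smallest p 0.0079), in Python 3.11.15. The limma test was checked on simulated arrays with log2 shifts of 0.5, 1 and 2, of which 77.6%, 95.5% and 100% were called. The differences of the 6 genes were smaller than these shifts. The check therefore cannot say how often differences of their size would be called. The members and the 12 other gene lists were chosen with earlier results of these data known. The genes named were the members, list genes that passed (at most 6 of a list) or else the pair with the smallest p, and the 3 genes most alike each member. Other list members were named for their role or their change after their values were seen, as was Mrps6. Correlations with marker means were added after seeing the data. A planned ratio of Akr1b3 to Sord was not computed, since neither was analysed here. Alternative settings changed the test, weighted arrays, left out genes below the 30th percentile, rescaled arrays, averaged probe sets, took the replicate number as a block or medullary markers as a covariate, or left out arrays. No pair of arrays held identical values (correlations between 0.978 and 0.992).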

Additional observations from a re-analysis of the deposited data

Results flagged for a closer look

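Among the values of the 6 genes and of the 24 named list genes, 8 of 60 groups held an array that stood apart from its group by Dixon's test. The nominal rate of about 1 in 20 holds for independent groups of normal values. These groups share the same 9 arrays, their list genes were named by p, and 57.3% of all genes held tied values. The count therefore cannot be weighed against that rate. For Nfat5 it was replicate 5 at 96 weeks (8.90, the nearest at 9.03) and replicate 4 at 14 weeks (9.16, the nearest at 9.04). For Slc6a12 it was replicate 3 at 96 weeks (7.29, the nearest at 7.73). The same kidney was highest for Hspb1 (8.27) and Krt8 (9.84) and lowest for Kap (12.80) at 96 weeks. At 14 weeks replicate 3 was highest for Hspb1 (7.71) and replicate 1 for Kap (13.30).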

How the results depend on the processing

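None of the 6 genes was called in 16 of 18 alternative settings, and 1, Slc5a3, was called after a repeated quantile normalization (-0.22) and after cyclic loess (-0.21); the cause was not tested. All genes but Slc6a12 kept their direction in all 18. Both rescalings of the arrays moved the log2 fold change of each of the 6 genes downward. Slc6a12 turned to 0.038 with array weights, to 0.075 without replicates 3 and 4 at 96 weeks together, and ranged from -0.084 to 0.083 when 1 array was left out. Leaving out 1 array gave 0 called genes of the 6 each time. Genes of osmolyte metabolism called (1 with all arrays) numbered 0 by the methods' t-test and after a repeated quantile normalization, 2 with array weights, the filter or the medullary covariate, 5 without replicates 3 and 4 at 96 weeks together, and 0 to 2 without 1 array. Tonicity genes called (0 with all arrays) numbered 2 with array weights or the filter, 3 with the medullary covariate, and 0 to 1 without 1 array, all as higher. After a repeated quantile normalization 1 tonicity gene was called, as lower. Urea genes called (0 with all arrays) numbered 1 with the filter or without replicates 3 and 4 together, and 0 to 1 without 1 array, all as higher. With the medullary covariate 1 urea gene was called, as lower. The Slc14a2 minus Slc14a1 difference ranged from 0.02 to 0.23 without 1 array. Csad lost its call when replicate 2 or 5 of the old kidneys or replicate 1, 2 or 4 of the young ones was left out (adjusted p up to 0.081 from limma).

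Replicate numbers were shared between the ages without a stated pairing. The correlation of same-numbered deviations ran from -0.04 to 0.08. With the replicate number as a block 0 of the 6 genes were called. The log2 fold change was -0.18 for Slc5a3 (adjusted p = 0.16 from limma) and -0.22 for Slc14a1 (adjusted p = 0.10 from limma). Replicate 5 exists only at 96 weeks, so that the block takes this array out of the age difference. Both log2 fold changes equalled those found without replicate 5 at 96 weeks. With the block, 279 of all genes were higher and 89 lower. Without a block, the counts were 578 and 249 when replicate 5 at 96 weeks was left out, and 860 and 479 with all arrays. Over all genes, higher and lower calls numbered 484 and 505 after a repeated quantile normalization, 562 and 379 after cyclic loess, and 273 and 94 by the methods' t-test.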
